A study of Bos taurus with 2 samples.

Results

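Cluster 1 was the largest of the 15 clusters into which the cells of a bovine satellite cell culture had been divided, with 2493 of 19096 cells. Its cells were found through the deposited table of mean counts per gene and cluster, whose scaled values could be turned back into whole sums of unique molecular identifiers (UMIs, each standing for 1 captured RNA molecule), and these sums fix the cluster of every cell. The cells came from the skeletal muscle of 1 male Holstein calf aged 2 weeks and had grown for 1 week in DMEM with 10% fetal bovine serum before capture. The same cells were made into 2 libraries with the 10x Genomics Chromium 3′ kit, referred to here as replicate 1 and replicate 2, and there was no treated or control group. The spread between the replicates therefore covers library preparation and sequencing, not animals or cultures.

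Satellite cells are the stem cells of skeletal muscle. Once activated they become myoblasts, which express the transcription factors MYF5 and MYOD1 and divide, then leave the cell cycle, switch on MYOG and the contractile genes, and fuse into multinucleated fibers. PAX7 and PAX3 mark the cells before and around activation. D-type cyclins carry signals from growth factors to the cell cycle machinery in G1, while CDK inhibitors such as CDKN1C (p57) hold the cycle back in differentiating muscle cells.

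Cluster 1 held 1295 of the 9939 cells of replicate 1 (13.03%, exact binomial 95% interval 12.4 to 13.7) and 1198 of the 9157 cells of replicate 2 (13.1%, 12.4 to 13.8). Intervals of this kind cover counting error only. Its cells carried a median of 12670 UMIs and 3228 genes in replicate 1 and 13243 UMIs and 3333.5 genes in replicate 2. No cell of the cluster had fewer than 2480 UMIs, and in total it contributed 17178051 and 16616532 UMIs of the 145631299 and 137818568 in the libraries. Scrublet scores placed 7.78% of its cells among the likely doublets, against 8% set for each library as a whole. The libraries shared 27 cell barcodes.

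The label of MYF5-high, non-cycling myoblasts was set against the markers first. The clusters were drawn on these same counts, so the levels describe the cells and are no independent check of the name. Levels below are UMIs per 10000 UMIs of the summed cells of a cluster in a library. MYF5 stood at 1.60 and 1.497 in replicates 1 and 2 of cluster 1 and at 0.896 and 0.843 in all other cells, a log2 ratio of 0.83 ± 0.0045 (SD, n = 2 libraries). MYOD1 stood at 5.30 and 5.06 in cluster 1 and at 4.02 and 3.77 in all other cells, a log2 ratio of 0.41 ± 0.018. DES, the muscle intermediate filament protein desmin, was at 5.10 and 4.93 against 4.55 and 4.42. CDH15, which encodes the muscle adhesion protein M-cadherin, was close to 0, with levels of 0.017 and 0.020, and it was low in all 15 clusters, with the highest mean level of 0.084 in cluster 7. MYF5 was thus past a 1.5-fold difference, while MYOD1 was not, and CDH15 was too low everywhere to bear on the name.

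MYF5 was not highest in cluster 1 alone. Cluster 8 had 1.57 ± 0.11 UMIs per 10000 and cluster 1 had 1.55 ± 0.072, and these neighbors in the order did not differ beyond their spread. Cluster 5 followed with 1.24 ± 0.036, then cluster 14 with 1.13 ± 0.29 and cluster 4 with 1.08 ± 0.052. The other 10 clusters lay at 1.06 or below, and the lowest was cluster 9 with 0.130 ± 0.0057. In MYOD1 the order was different. Cluster 1 was sixth of 15 with 5.18 ± 0.16, below clusters 13 (6.75 ± 0.35), 2 (6.72 ± 0.43), 3 (6.35 ± 0.24), 6 (5.75 ± 0.44) and 10 (5.60 ± 0.22). Cluster 12 came next, with 3.96 ± 0.19. Cluster 8, level with cluster 1 in MYF5, had only 0.892 ± 0.014 of MYOD1. Cluster 1 thus joined the MYF5 level of cluster 8 to a MYOD1 level nearer that of clusters 3 and 2.

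**Figure D1:**
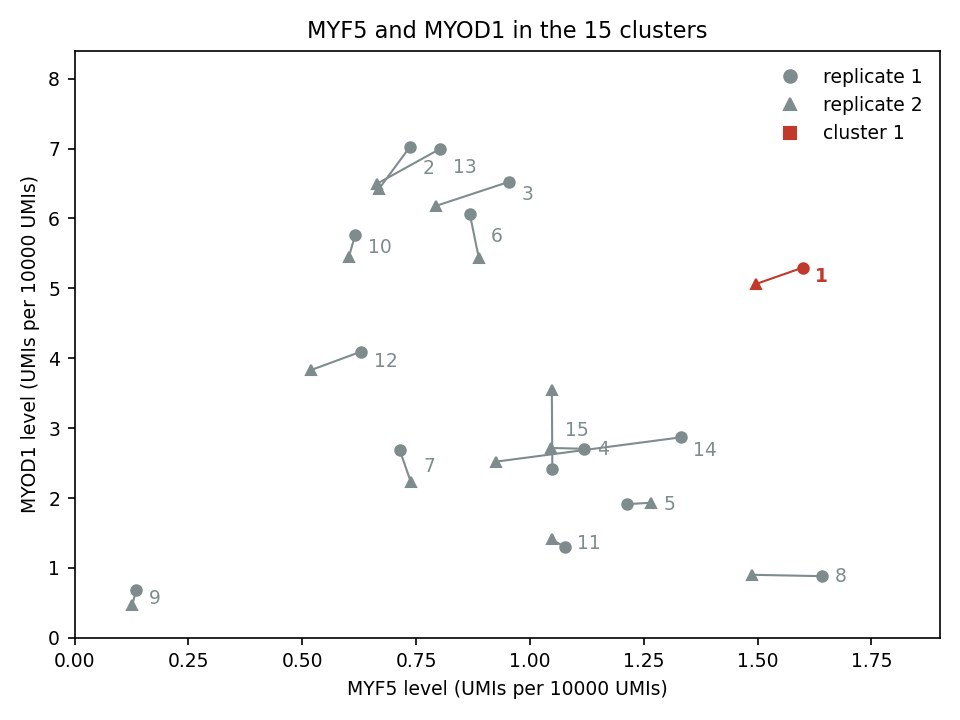
Level of MYF5 (x axis) and of MYOD1 (y axis) in each of the 15 clusters, both in UMIs per 10000 UMIs; the circle is replicate 1, the triangle replicate 2, the line joins them and the number names the cluster. Cluster 1 stands by itself at upper right, with the MYF5 level of cluster 8 (1.57) and a MYOD1 level of 5.18.

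The same held cell by cell. Each cell was thinned to 5000 UMIs, leaving out the 17 and 15 cells of cluster 1 with fewer, so that depth did not set the share of cells with a UMI. MYF5 was then detected in 47.3% of the cells of replicate 1 (44.6 to 50.1) and in 45.6% of those of replicate 2 (42.7 to 48.5). Without thinning, the shares were 70.7% and 69.4%. In cluster 8 the thinned shares were 46.4% and 43.0%, in cluster 3 30.5% and 30.5%, and in cluster 2 27.4% and 26.9%. Cluster 9, which the authors assigned to fibro-adipogenic progenitors, served as the level in cells that should lack these genes. MYF5 was detected in 4.10% and 3.24% of its thinned cells. Median depth in cluster 9 was 23011 UMIs before thinning, against 12929 in cluster 1.

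MYOD1 was detected in 83.4% (81.3 to 85.4) and 81.3% (79.0 to 83.5) of thinned cluster 1 cells and in 94.0% and 94.1% without thinning. It reached 26.8% and 24.8% in cluster 8, 88.9% and 89.3% in cluster 3, and 15.7% and 12.6% in cluster 9. Both genes were seen in 37.7% and 34.6% of the thinned cluster 1 cells, and neither in 6.96% and 7.69%. MYOD1 was found in 79.7% (76.2 to 82.8) of the replicate 1 cells with a MYF5 UMI and in 86.8% (84.0 to 89.2) of those without. In replicate 2 these shares were 75.9% (72.0 to 79.4) and 85.9% (82.9 to 88.5). With cells thinned to 2000 UMIs the gap shrank to 56.5% against 59.3% and 55.4% against 56.4%, with overlapping intervals. Across the cells thinned to 5000 UMIs, Pearson's r between the log UMIs (plus 1) of MYF5 and MYOD1 was −0.12 and −0.16 (Spearman's rho −0.099 and −0.16), a weak relation given as a description. Before thinning, a cluster 1 cell held a median of 1 MYF5 UMI in both replicates and a median of 6 MYOD1 UMIs in both, and 27 and 19 cells held 10 or more MYF5 UMIs.

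PAX7 and PAX3 were almost absent from the cluster, as from all 15, whose mean levels were at most 0.012 for PAX7 and 0.028 for PAX3. PAX7 was detected in 6 and 4 of the thinned cells (0.469% and 0.338%) and PAX3 in 9 and 7 (0.704% and 0.592%). MYOG, which drives the last steps of differentiation, was detected in 17.6% and 19.4% of the thinned cluster 1 cells, against 63.2% and 63.8% in cluster 3, 3.93% and 4.20% in cluster 8 and 7.68% and 7.89% in cluster 9. Its distribution among the cells was uneven: 71.0% and 68.3% of the unthinned cells held no MYOG UMI, while 40 and 54 cells held 10 or more and the highest held 38 and 36.

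Differences between cluster 1 and other cells are described, not tested. The clusters had been made from these same counts, so a test of a cluster against the rest would use the counts that drew it. A gene is called past the fold where its level was at least 1.5 times higher or lower in both replicates, among genes with at least 20 UMIs in cluster 1 and the compared cells together in each replicate. Against all other cells, 12879 genes were measured, and 323 (2.51%) were higher and 1386 (10.8%) lower in cluster 1. The median log2 ratio of all genes was −0.09 in this comparison. Restricted to levels of at least 1 UMI per 10000 on the higher side, only 28 genes were higher and 90 lower, so most of the genes past the fold were of low level.

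Nearly all listed genes of the cell cycle were on the lower side. Of 43 measured S phase genes, 42 were lower and 0 higher, and their summed level was 10.7 and 10.8 in the replicates of cluster 1 against 28.9 and 28.3 in all other cells (log2 ratio −1.41 ± 0.027). TIPIN, at −0.52, was the exception. Of 54 measured G2/M genes, 50 were lower and 0 higher, with summed levels of 22.1 and 21.5 against 77.3 and 75.6 (log2 ratio −1.81 ± 0.0022). The 4 others, CKS1B, CBX5, CTCF and JPT1, were lower by less than the fold or in 1 replicate only. By S phase level cluster 1 was 13th of 15, level with cluster 3 (both 10.8) and above clusters 8 (10.4 ± 0.19) and 12 (6.95 ± 0.28). By G2/M level it was 14th, with 21.8 ± 0.37, above cluster 8 at 14.9 ± 0.026 and below cluster 12 at 24.8 ± 0.080.

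TOP2A, the topoisomerase that untangles DNA at mitosis, was at 0.192 and 0.169 in cluster 1 and at 3.04 and 2.61 in all other cells, 15.7-fold lower (log2 ratio −3.97 ± 0.028). MKI67, the proliferation antigen Ki-67, was at 0.460 and 0.462 against 3.57 and 3.51 (log2 ratio −2.94 ± 0.022). Both replicates of cluster 1 lay far below both replicates of the remaining cells in these genes. NUSAP1 and ASPM, which act on the mitotic spindle, and KIF20B, a kinesin of cytokinesis, had log2 ratios between −3.76 and −3.22. CCNB1, the cyclin of entry into mitosis, had −2.73 ± 0.14, and UBE2C, the ubiquitin-conjugating enzyme that ends mitosis, had −2.59 ± 0.012. RRM2, the ribonucleotide reductase subunit that makes precursors of DNA, had −3.06 ± 0.093, and UHRF1, which maintains DNA methylation behind the replication fork, had −2.71 ± 0.059. Outside the cell cycle, the genes furthest below among those with a level of at least 1 in the other cells were ACTA1, skeletal alpha-actin (−3.52 ± 0.65, with 124 and 211 UMIs), and CXCL5, a chemokine (−3.35 ± 0.045). By mean level cluster 1 was only 10th among the clusters in both. ACTA1 was highest in cluster 12, at 18.8, and stood at 0.0996 in cluster 1, beside 0.102 in cluster 8 and 0.0803 in cluster 2. CXCL5 was highest in cluster 9, at 8.76, and stood at 0.108 in cluster 1, beside 0.139 in cluster 5 and 0.102 in cluster 12. Low levels of both genes were thus shared with other clusters.

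**Figure D2:**
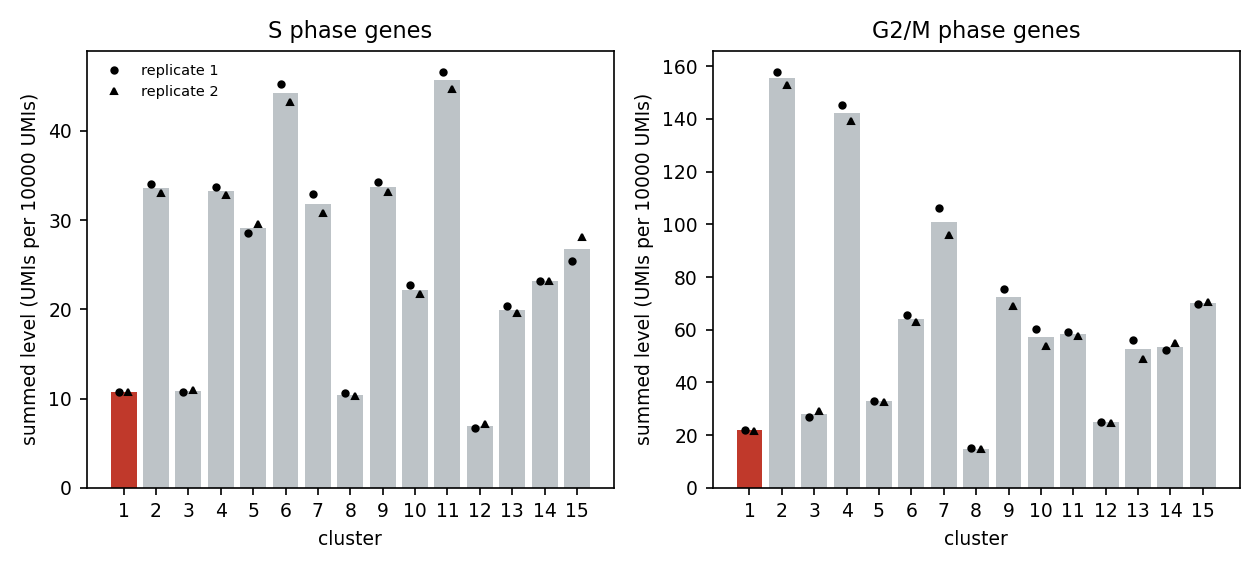
Summed level of the S phase list (left) and the G2/M list (right), in UMIs per 10000 UMIs, in clusters 1 to 15; bars are the mean of the libraries, circles replicate 1, triangles replicate 2, and cluster 1 is red. Cluster 1 stands at 10.8 and 21.8, among the lowest bars on both sides, while cluster 2 stands at 33.6 and 155.

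The lists were also summed in single cells. In cells thinned to 5000 UMIs the median G2/M sum was 9 UMIs in replicate 1 and 8 in replicate 2, 10% of the cells of replicate 1 had 4 or fewer and 10% had 23 or more, whereas the median in cluster 2 was 76 and 73 and 10% of its cells had 47 and 45 or fewer. In cluster 6, where the S phase level was the second of 15, the G2/M median was 31 and 29 and 10% of the cells had 15 and 14 or fewer, so its range overlapped that of cluster 1. For the S phase list the medians were 5 and 5 UMIs in cluster 1 against 16 and 16 in cluster 2 and 23 and 23 in cluster 6, and 2.35% and 2.37% of the cluster 1 cells reached 16. How many cells of the cluster were cycling cannot be read from these sums.

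The G1 regulators went the other way in part. Of 18 measured, 3 were higher and 3 lower, beside 2.51% higher and 10.8% lower among all genes. The summed level of the list was 22.8 and 23.5 in cluster 1 against 17.3 and 17.5 in all other cells. The higher ones were CCND3 (1.65 and 1.71 against 0.870 and 0.923, log2 ratio 0.91 ± 0.026) and CCND2 (1.35 and 1.82 against 0.767 and 0.993, 0.85 ± 0.040), both D-type cyclins, and BTG1, an antiproliferative gene (4.38 and 4.04 against 2.68 and 2.54, 0.69 ± 0.029). CCND2 was higher in replicate 2 than in replicate 1 in both sets of cells, and within each replicate cluster 1 was higher. All 3 had their highest mean level of the 15 clusters in cluster 1, although cluster 3 overlapped it in CCND3 (1.55 and 1.77) and in BTG1 (4.13 and 3.77). The remaining D-type cyclin, CCND1, was at 0.740 and 0.713. In it cluster 1 was 4th of 15, below clusters 9 (1.45 ± 0.011), 7 (0.968 ± 0.082) and 3 (0.827 ± 0.053). CDKN1C was at 9.95 and 10.6 against 6.72 and 6.85, a log2 ratio of 0.60 ± 0.041 that passed the fold in replicate 2 only. CDKN2C, CDKN2D and RBL1, which restrain the cycle through cyclin-dependent kinases or E2F factors, were lower, with log2 ratios of −1.70 ± 0.081, −2.29 ± 0.027 and −1.74 ± 0.15. CDKN1A (p21) was nearly level, at 1.69 and 1.68 against 1.58 and 1.53.

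Besides MYF5, CCND3 and CCND2, the genes furthest above all other cells, among those with a level of at least 1 in cluster 1, had different roles. MX1, an interferon-induced GTPase, was first of these with 2.38 and 2.42 UMIs per 10000 against 1.06 and 1.03 (log2 ratio 1.195 ± 0.050, 2.29-fold). ITIH5, an extracellular matrix-stabilizing protein, had 1.08 and 1.19 against 0.538 and 0.611 (0.98 ± 0.032). S100A13 (0.95 ± 0.028) and S100A4 (0.88 ± 0.015) encode calcium-binding proteins, and GNG11 (0.94 ± 0.047) a G protein gamma subunit. MEST (0.85 ± 0.038) is an imprinted gene of mesoderm, MXD4 (0.81 ± 0.052) encodes an antagonist of MYC, and ALDH1L2 (0.80 ± 0.020) a mitochondrial enzyme of folate metabolism. ANKRD1, an ankyrin-repeat protein of muscle nuclei and sarcomeres, had 10.3 and 10.1 against 5.43 and 5.61 (0.89 ± 0.046). These log2 ratios were all between 0.80 and 1.195, far smaller than the distances on the lower side. MX1, GNG11, MEST and S100A13 had their highest mean level of the 15 clusters in cluster 1, while S100A4 was the third of 15 and ANKRD1 the fourth. ALDH1L2 and MXD4 were highest in cluster 8, at 2.12 ± 0.021 and 1.34 ± 0.0017 against 1.13 ± 0.0032 and 1.21 ± 0.013 in cluster 1, and ITIH5 was highest in cluster 7, at 1.74 ± 0.39 against 1.13 ± 0.076. The replicates of MEST overlapped those of cluster 13 (1.73 and 2.09), and those of S100A13 overlapped cluster 14 (2.58 and 1.72).

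**Figure D3:**
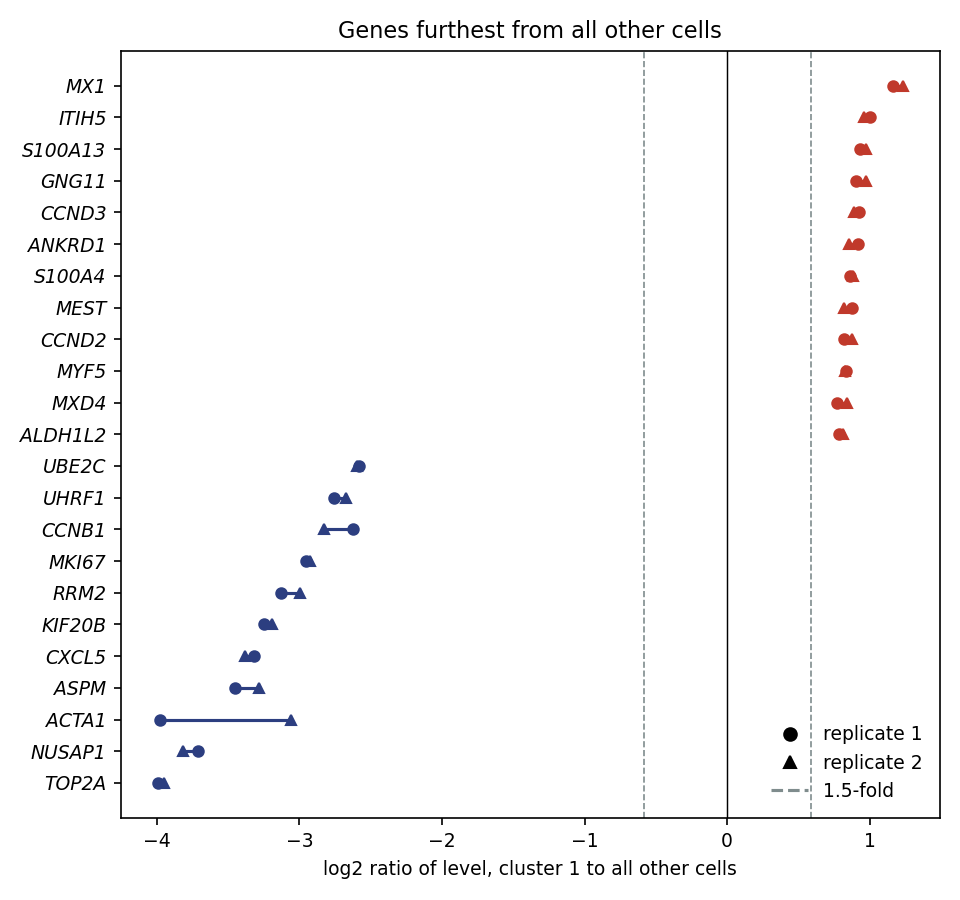
Log2 ratio of the level in cluster 1 to that in all other cells, for the 12 genes furthest above (red) and 11 of the 12 furthest below (blue) among genes past the 1.5-fold limit (dashed lines) with a level of at least 1 on the higher side; circles are replicate 1 and triangles replicate 2. The higher genes lie between 0.80 and 1.195, and the lower ones between −3.97 and −2.59, where ACTA1 is the one with replicates far apart.

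Among the 19 myogenic regulators, 2 were higher and 2 lower than in all other cells, where 2.51% of all genes were higher and 10.8% lower. PITX3, a homeobox gene of the myogenic lineage, was the other higher one besides MYF5, at the low level of 0.053 in both replicates against 0.014 and 0.015 (91 and 88 UMIs in cluster 1, log2 ratio 1.91 ± 0.083), and its level was highest in cluster 1. MYOG was lower, at 0.804 and 0.9497 against 2.27 and 2.29 (−1.39 ± 0.16), and MEF2C, its partner in differentiation, had only 4 and 6 UMIs (−3.26 ± 0.41). TCF12, an E protein that pairs with MYOD1, was at 1.75 and 1.77 against 1.29 and 1.23, within the fold. MYF6 was at 0.121 and 0.106, PAX7 at 0.008 and 0.008, and PAX3 at 0.016 and 0.010.

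Of 18 inhibitors of myogenic factors, HEYL, a Notch target, was higher (0.486 and 0.498 against 0.283 and 0.293, log2 ratio 0.77 ± 0.011), and TWIST1 and TWIST2 were lower. ID1, which sequesters E proteins, was at 9.51 and 9.84 against 10.6 and 10.5, and ID3 at 2.97 and 2.94 against 2.62 and 2.57. The median log2 ratio of the list was −0.04, beside −0.09 for all genes. Of 24 satellite cell surface and quiescence genes, 4 were higher and 3 lower, beside 2.51% and 10.8% of all genes. FGFR4, a fibroblast growth factor receptor of myoblasts, was higher at 0.977 and 1.01 against 0.467 and 0.501 (1.04 ± 0.036), and its level was highest in cluster 1. CD82, a tetraspanin of human myogenic cells, was at 2.13 and 2.04 against 1.21 and 1.196 (0.79 ± 0.036). MEGF10 and DLK1 were higher at levels under 0.07, and SDC3, MCAM and CDH2 were lower at levels under 0.06. NCAM1, with 5.90 and 6.16 against 4.08 and 4.16 (0.55 ± 0.025), came close to the fold.

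Of 52 measured genes of muscle structure and contraction, 26 were lower than in all other cells and 2 higher, beside 10.8% and 2.51% of all genes. The other 24 were within the fold, and the median log2 ratio of the list was −0.67. The summed level of the list was 69.7 and 70.2 against 84.2 and 83.9. Cluster 1 was sixth of 15 in it, with 70.0 ± 0.34 beside 69.0 ± 0.35 in cluster 2. The clusters above it were 12 (444), 3 (154), 15 (147), 7 (117) and 14 (88.3). MYLPF, the fast skeletal myosin light chain, was at 1.497 and 1.71 against 6.56 and 6.33 (−2.01 ± 0.17), and MYH3, embryonic myosin heavy chain, at 0.327 and 0.371 against 1.08 and 1.19 (−1.70 ± 0.028). The most abundant members were within the fold: TPM1, a tropomyosin, had 19.1 and 18.2 against 20.3 and 19.9, and ACTC1, cardiac alpha-actin, which embryonic and regenerating skeletal muscle also expresses, had 16.2 and 17.1 against 22.3 and 22.2. SGCA, alpha-sarcoglycan of the dystrophin complex, was higher (1.18 and 1.18 against 0.755 and 0.774, 0.62 ± 0.031), as was CACNA1S, at 7 and 15 UMIs. Of 15 fusion genes, 2 were lower and 0 higher, near the 10.8% lower among all genes. They were MYMK, myomaker, at 0.064 and 0.079 against 0.221 and 0.248, and TMEM182, with 5 and 1 UMIs.

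In the matrix lists most genes were within the fold. Of 18 collagens, 2 were higher and 4 lower, beside 2.51% and 10.8% of all genes. The summed level of the collagens was 157 and 160 against 125 and 129 (log2 ratio 0.32 ± 0.010). COL11A1 (1.504 and 1.51 against 0.918 and 0.952, 0.69 ± 0.034) and COL5A3 (0.054 and 0.053 against 0.017 and 0.016) were higher. COL1A2, COL3A1 and COL1A1, the chains of fibrillar collagens I and III, had log2 ratios of 0.44, 0.31 and 0.28. Of 31 other matrix genes, 5 were lower and 0 higher, not far from the 10.8% lower among all genes, namely BGN (−3.15 ± 0.037), THBS2, FBN2, VCAN and TNC. SPARC had 46.7 and 46.6 against 34.5 and 35.3.

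Of 13 genes of the insulin-like growth factor system, 3 were lower and 0 higher, beside 10.8% and 2.51% of all genes. The 3 were IGFBP5 (0.279 and 0.336 against 1.00 and 0.995, log2 ratio −1.70 ± 0.19), IGFBP4 and IGFBP7, all of which encode proteins that bind the growth factors. IGF2, the fetal growth factor, was at 11.3 and 14.6 against 8.10 and 10.4 (0.49 ± 0.0067). Of 23 genes of myostatin and TGF-beta signaling, 5 were lower and 0 higher, beside the same shares of all genes. The summed level of this list was highest in clusters 7 (19.1 ± 3.0) and 9 (15.9 ± 0.092). Cluster 1 was 10th of 15 with 6.50 ± 0.15, between clusters 3 (5.84 ± 0.056) and 8 (7.72 ± 0.015). INHBA, the activin A subunit, was at 0.024 and 0.022 against 0.492 and 0.422 (−4.29 ± 0.062), and FST, the activin and myostatin antagonist follistatin, at 0.199 and 0.147 against 0.755 and 0.748 (−2.14 ± 0.30). MSTN, TGFB3 and GREM1 were lower with fewer than 20 UMIs in each replicate.

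Markers of other cell types were low or shared. Of 13 measured fibro-adipogenic and adipocyte genes, 6 were lower and 0 higher, beside 10.8% and 2.51% of all genes. PDGFRA, the receptor that defines fibro-adipogenic progenitors, was at 0.125 and 0.132 against 0.347 and 0.329 (log2 ratio −1.40 ± 0.11). PDGFRA was highest in clusters 9 (1.58 ± 0.074) and 7 (1.48 ± 0.36). Cluster 1 was 11th of 15 with 0.128 ± 0.0047, beside 0.121 ± 0.0042 in cluster 2, 0.092 ± 0.0068 in cluster 3 and 0.267 ± 0.022 in cluster 8. The summed level was 11.3 and 11.3 against 12.3 and 11.9, and DCN, decorin, was its most abundant gene, with 6.59 and 6.70 against 7.13 and 6.87. The 6 endothelial genes summed to 0.0245 ± 0.0032 and the 3 tendon genes to 0.030 ± 0.0028. The 6 immune genes summed to 0.0177 ± 0.0013, with PTPRC, CSF1R and AIF1 at 0. The glial sum of 0.370 ± 0.036 was all from S100B, and SOX10 and FOXD3 were at 0. Pericyte genes summed to 0.583 ± 0.040, of which NOTCH3, which myogenic cells also express, gave 0.466 and 0.503. The smooth muscle sum was 7.96 ± 0.64, of which ACTA2, smooth muscle alpha-actin, gave 8.04 and 7.14 against 6.62 and 6.596 in the other cells.

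Clusters 8, 3 and 2 were compared with cluster 1 one by one. By the root mean square difference of log2 levels over 9067 genes, cluster 3 was nearest to cluster 1 (0.289, r = 0.983 across genes), followed by cluster 5 (0.307) and cluster 8, while cluster 2 was sixth in the summed counts of both libraries (0.430, r = 0.962) and the fifth in each replicate (0.434 and 0.431). Genes are not independent replicates, so these values only rank the clusters. When each cell was instead given to the cluster profile of highest multinomial likelihood, 1939 of the cells of cluster 1 (77.8%) stayed. Of the rest, 141 went to cluster 5, 126 to cluster 6, 119 to cluster 8 and 86 to cluster 3. The genes by which these cells resemble a neighbor were not examined.

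Against cluster 8, 10854 genes were measured, and 618 (5.69%) were higher and 865 (7.97%) lower in cluster 1, with a median log2 ratio of −0.03. Most contractile genes were higher in cluster 1, while most myogenic regulators, MYF5 among them, did not pass the fold. Among the regulators that did were MYOD1 (5.30 and 5.06 against 0.882 and 0.902) and MYOG (0.804 and 0.9497 against 0.116 and 0.099). CDKN1C was at 9.95 and 10.6 in cluster 1 and at 0.867 and 0.847 in cluster 8, 11.97-fold higher (log2 ratio 3.58 ± 0.085), and ACTC1 was at 16.2 and 17.1 against 1.48 and 1.54 (3.46 ± 0.018). FITM1, which acts in the storage of fat droplets and is a muscle gene, had 3.06 ± 0.43, and SGCA 3.03 ± 0.078. Of 36 measured contractile genes, 29 were higher and 0 lower, and of 18 myogenic regulators, 6 were higher and 0 lower. The summed level of the regulators was 12.7 and 12.6 against 6.05 and 5.88 (log2 ratio 1.09 ± 0.026). Of 17 collagens, 10 were lower and 2 higher, with a summed level of 157 and 160 against 265 and 263. Further genes lower in cluster 1 were IGFBP5 (−2.92 ± 0.22), PRSS23, a secreted protease (−2.71 ± 0.11), FGF7, a growth factor of stromal cells (−2.15 ± 0.081), and NUPR1, a stress-induced nuclear protein (−2.03 ± 0.032). Fibro-adipogenic and adipocyte genes were 0 higher and 7 lower of 10, at 11.3 and 11.3 against 24.8 and 23.4. The S phase list was near level, with 2 genes higher and 3 lower of 42 and sums of 10.7 and 10.8 against 10.6 and 10.3. The G2/M list was higher in cluster 1, with 13 genes higher and 0 lower of 53 and sums of 22.1 and 21.5 against 14.9 and 14.9 (log2 ratio 0.55 ± 0.022).

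Against cluster 3, 11049 genes were measured, and 1035 (9.37%) were higher and 516 (4.67%) lower in cluster 1, with a median log2 ratio of 0.03. Of 44 contractile genes, 34 were lower and 1 higher, and their summed level was 69.7 and 70.2 against 157 and 151. MYLPF was at 1.497 and 1.71 in cluster 1 and at 13.9 and 12.7 in cluster 3, 8.31-fold lower (log2 ratio −3.05 ± 0.23), MYOG was at 0.804 and 0.9497 against 6.61 and 6.76 (−2.93 ± 0.15), and MYH3 was at −1.87 ± 0.099. PVR, a nectin-like receptor, was lower as well (−2.53 ± 0.20). On the higher side, TAGLN2, an actin-binding transgelin, was at 7.63 and 8.12 against 1.68 and 1.84 (2.16 ± 0.031), followed by ATF5, a stress-response transcription factor (1.88 ± 0.035), EMP3, a membrane protein (1.64 ± 0.069), and ALDH1L2 (1.60 ± 0.070). Of 16 collagens, 11 were higher and 0 lower, and of 16 inhibitors of myogenic factors, 9 were higher and 0 lower. The 18 myogenic regulators were mixed, with 3 higher and 5 lower. The S phase list was level in both clusters, at 10.7 and 10.8 against 10.7 and 10.98. The G2/M list was lower in cluster 1, at 22.1 and 21.5 against 27.0 and 29.0 (log2 ratio −0.36 ± 0.097), with 6 genes lower and 2 higher of 54.

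Against cluster 2, 11200 genes were measured, and 584 (5.21%) were higher and 1085 (9.69%) lower in cluster 1, with a median log2 ratio of −0.06. All 54 G2/M genes and 42 of 43 S phase genes were lower, and TOP2A was at 0.192 and 0.169 against 6.23 and 5.22 (log2 ratio −4.99 ± 0.055). NUSAP1 (−4.95 ± 0.056), SPDL1 of the spindle checkpoint (−4.84 ± 0.21) and ASPM (−4.74 ± 0.15) came next. The contractile genes hardly differed: 3 were lower and 2 higher of 39, with summed levels of 69.7 and 70.2 against 68.8 and 69.3. Higher in cluster 1 were ATF5 (1.67 ± 0.021), MXD4 (1.60 ± 0.092), ALDH1L2 (1.58 ± 0.14) and ANKRD1 (10.3 and 10.1 against 3.47 and 3.59, 1.53 ± 0.046). Collagens were 5 higher and 0 lower of 16, with 157 and 160 against 90.1 and 91.3.

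**Figure D4:**
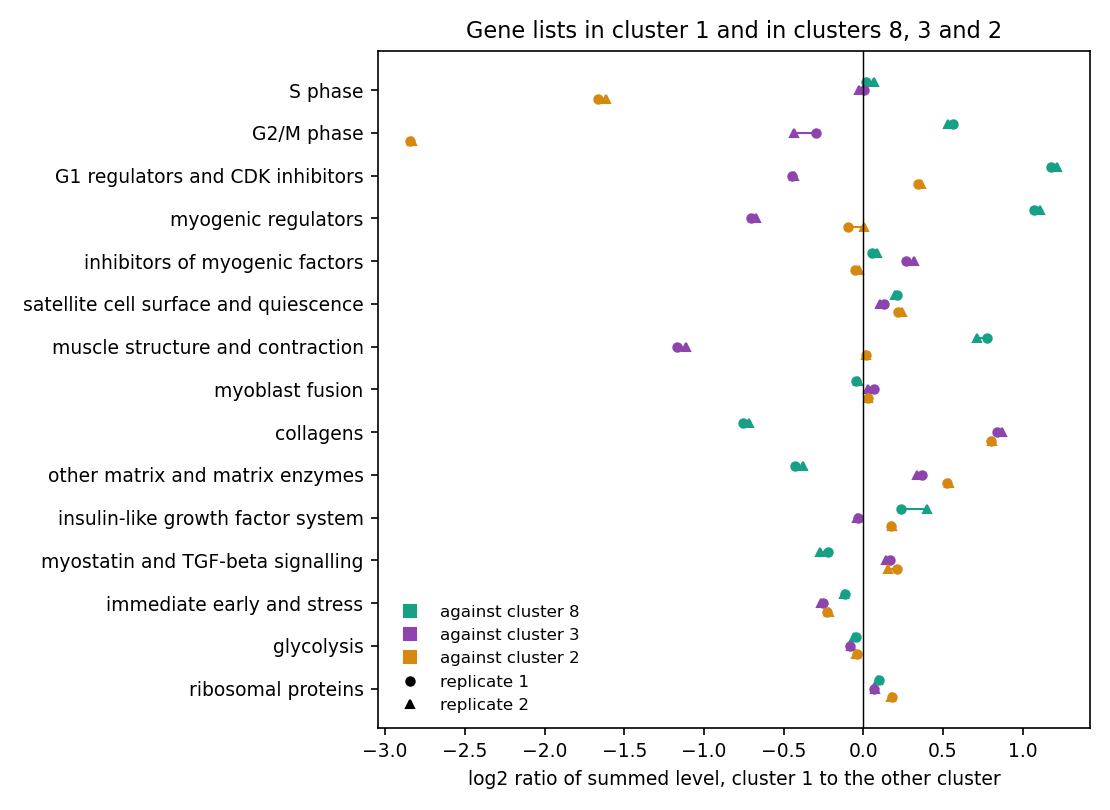
Log2 ratio of the summed level of each gene list in cluster 1 to that in cluster 8 (green), cluster 3 (purple) and cluster 2 (orange); circles are replicate 1 and triangles replicate 2, and the vertical line marks equal levels. Contractile genes and collagens lie on opposite sides against clusters 8 and 3, and the cell cycle lists stand far to the left against cluster 2 only.

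Placed between clusters 8 and 3, cluster 1 took a middle level in nearly every gene that separates them. Of the genes with a level of at least 1 in cluster 8 or 3, 343 were higher by the fold in cluster 3, and in 337 of these (98.3%) cluster 1 lay between both clusters in both replicates. Of 267 genes lower in cluster 3, cluster 1 lay between in 262 (98.1%). The median position on the log2 scale, with 0 for cluster 8 and 1 for cluster 3, was 0.504 for the first set and 0.496 for the second. For comparison, cluster 5 lay between in 81.3% and 86.1% of these genes, cluster 4 in 75.8% and 92.1%, and cluster 2 in 75.5% and 74.9%. DES shows the pattern, with 0.878 and 1.07 in cluster 8, 5.10 and 4.93 in cluster 1 and 10.8 and 10.2 in cluster 3. COL1A1 shows it in the other direction, with 84.3 and 82.2, then 39.6 and 39.2, then 16.8 and 16.1. CDKN1C had 0.867 and 0.847, then 9.95 and 10.6, then 18.6 and 19.1.

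Of the 11 genes outside this pattern, MX1, MEST, CAT (catalase), PTGIS (prostacyclin synthase) and PRXL2B (a peroxiredoxin-like enzyme) were above both clusters in both replicates. MX1 was at 0.728 and 0.694 in cluster 8, 2.38 and 2.42 in cluster 1 and 1.86 and 1.92 in cluster 3, and CAT was at 2.57 and 2.85, 6.39 and 6.78, and 5.31 and 5.79. HSPA5, the chaperone of the endoplasmic reticulum, was below both, at 10.8 and 10.6, then 5.19 and 5.16, then 5.79 and 5.51, as was ANGPTL2. MYF5 was among the 4 others, since in cluster 1 it was within the spread of cluster 8.

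The cells of cluster 1 were not alike. Variation among them was measured, in each replicate, by the variance of Pearson residuals, which is close to 1 where counts vary no more than sampling gives. The median of 8613 genes was 1.05 in both replicates, and 189 genes were over 2 in both. ACTC1 ranked first, with 31.8 and 34.5. It was detected in 91.1% and 91.7% of the unthinned cells, at a mean of 21.5 and 23.7 UMIs per cell, but 10% of the cells had 65 or more in replicate 1 and 71 or more in replicate 2. The contractile genes TNNC2, fast troponin C (15.4 and 15.2), and MYLPF (12.4 and 14.3) and the CDK inhibitor CDKN1C (11.9 and 13.4) were also among the first 10. S100A4 (27.9 and 25.1), IGF2 (15.6 and 20.5), COL1A1 (12.4 and 12.1), TFPI2, a protease inhibitor (11.7 and 11.99), IGFBP3 (10.7 and 13.3) and ANKRD1 (7.57 and 8.26) made up the rest. MYOG was 12th, MYOD1 62nd and MYF5 106th. Genes of the cell cycle varied too: CENPF, a kinetochore protein of mitosis, was 14th (6.52 and 6.35) and was detected in 47.2% and 48.3% of the unthinned cells, with up to 45 and 25 UMIs in a cell. Of 44 ranked G2/M genes, 9 were over 2 in both replicates, among them HMMR, BIRC5, TPX2, MKI67 and CENPE, and of 35 ranked S phase genes, 0 were. The values depended on the overdispersion of 0.01 assumed for sampling. With 0.1, ACTC1 had 11.9 and 12.5 and came after S100A4 (13.96 and 12.3), and COL1A1 (3.01 and 2.95) and ANKRD1 (3.59 and 3.92) left the first 10 for ranks 34 and 24.

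**Figure D5:**
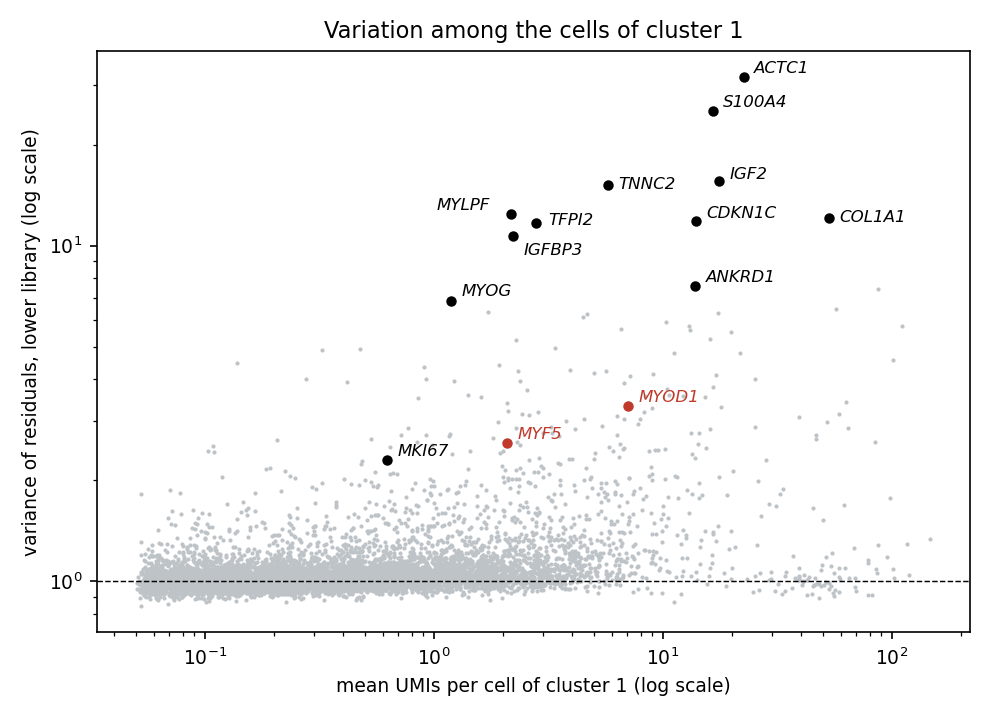
Variance of Pearson residuals among the cells of cluster 1 (y axis, log scale, the lower of the libraries) against the mean UMIs per cell (x axis, log scale), one point per gene for 8613 genes; the dashed line marks the value sampling alone gives. ACTC1 and S100A4 stand highest, and MYF5 and MYOD1 (red) lie well below the first 10.

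Over the thinned cells (1278 in replicate 1 and 1183 in replicate 2), ACTC1 varied together with CDKN1C. Pearson's r across cells, on log UMIs plus 1, was 0.41 and 0.41 for this pair (Spearman's rho 0.40 and 0.40). It was 0.37 and 0.34 for TNNC2 and MYLPF (rho 0.26 and 0.23), 0.36 and 0.33 for ACTC1 and TNNC2 (rho 0.33 and 0.30), and 0.29 and 0.30 for CDKN1C and MYOG (rho 0.28 and 0.26). MYLPF and TNNC2, the other contractile genes among the first 10, followed CDKN1C only weakly. Their r with CDKN1C was 0.17 and 0.12 for MYLPF and 0.11 and 0.098 for TNNC2. The cells share their library and depth, so these values are a description. Of the other pairs among the first 10 genes, MYOG, MYF5 and MYOD1, the largest were ACTC1 and MYLPF (0.32 and 0.28) and ACTC1 and MYOG (0.28 and 0.32). Summed over the contractile list, the thinned cells had a median of 29 and 27 UMIs, 10% had 16 or fewer and 10% had 57 and 58 or more. The medians were 19 and 20 in cluster 8 and 72 and 68 in cluster 3, so the 90th percentile of cluster 1 lay below the median of cluster 3.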

How the data were processed

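The deposited files hold the authors' UMI counts per gene and cell for both libraries, made per the labels with Cell Ranger 3.0.2 on ARS-UCD1.2, and a table of mean counts per gene in 15 clusters. The authors' scaling of those means is not a standard unit, and their columns of log2 fold changes and P-values were not used. Each mean, as a share of the summed means of its cluster, times the cluster's UMI total gave a whole count to within 0.000114, and elimination over 30 rounds assigned all 19096 cells, after which 0 of 252240 gene and cluster pairs differed. Counts were summed per cluster and library, divided by the UMI total and compared within each library (Python 3.11.15, scanpy 1.11.5, and edgeR 4.0.16 for TMM factors). Scripts were tested on simulated data. Scrublet's own thresholds called 0 and 6 cells, so, after this was seen, the highest 8% of scores per library were taken as likely doublets, which stayed in except in an alternative. The cluster, gene lists and comparisons were chosen with earlier results of these data known. The text names the markers and myogenic regulators, the 12 genes furthest above and below all other cells with a level of at least 1, 4 each way against clusters 8, 3 and 2, up to 4 highest-level members and 2 of largest ratio per list, and the 10 genes of highest variation (mean of at least 0.05 UMI, overdispersion 0.01). Other genes, the position between clusters 8 and 3 and the correlations were picked after the values were seen. Alternatives were other folds, filters, scalings, cell sets and assignments. Mitochondrial genes were not analysed here, and a few genes that the rule or the lists hold are not reported here.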

Additional observations from a re-analysis of the deposited data

How the results depend on the processing

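The log2 ratios pair cluster 1 with the compared cells within each library, and no test was run on them. The counts of genes past the fold depended on the limit. At 2-fold, 64 genes were higher and 760 lower than in all other cells, 258 and 350 against cluster 8, 379 and 175 against cluster 3, and 167 and 544 against cluster 2, and at the looser limit of a log2 ratio of 0.32 these became 895 and 2558, 1252 and 1858, 2081 and 1363, and 1382 and 2240. With no filter on low counts, 490 genes were higher than in all other cells. With at least 100 UMIs, 409 were higher and 573 lower than in cluster 8, 662 higher than in cluster 3 and 376 higher than in cluster 2. With 1 replicate left out, so that a gene had to pass in 1 library only, 663 to 674 were higher than in all other cells, 942 to 965 higher and 1345 to 1426 lower than in cluster 8, 793 to 822 lower than in cluster 3 and 974 to 1017 higher than in cluster 2. The log2 ratio to all other cells of MYF5 and of the S phase, G2/M and contractile lists kept its direction in every alternative. With TMM factors it was 0.89 for MYF5, 0.47 for MYOD1, −1.35 for S phase, −1.75 for G2/M and −0.20 for contractile genes. Without likely doublets it was 0.84, 0.44, −1.46, −1.90 and −0.31. With cells assigned by likelihood it was 0.84, 0.45, −1.34, −1.82 and −0.21, and with the other clusters weighted equally 0.81, 0.52, −1.30, −1.60 and −0.50. In cells thinned to 5000 UMIs it was 0.80 for MYF5, −1.37 for S phase, −1.69 for G2/M and −0.28 for contractile genes, and without the shallow clusters 7, 10, 13, 14 and 15 it was 0.82 for MYF5, −1.82 for G2/M and −0.28 for contractile genes. Thinned to 2000 UMIs, MYF5 was found in 24.5% of the cells, MYOD1 in 57.4%, both in 13.7% and MYOG in 10.7%. The cluster held 11.1% of all cells by likelihood and 14.5% once cells under 2000 UMIs were left out. Signs turned in 5 lists. Inhibitors of myogenic factors went to 0.056 with TMM, 0.0018 without doublets, 0.030 thinned, 0.045 with equal weights, and ran from −0.019 to 0.0091 with 1 replicate left out. Fusion went to 0.030 with TMM, glycolysis to 0.0028 with equal weights and endothelial genes, at −0.47 with few UMIs, to 0.064 thinned. Pericyte genes went to 0.012 with TMM, 0.0011 without cells under 2000 UMIs, 0.062 thinned, 0.059 without the shallow clusters, and ran from −0.097 to 0.0012 with 1 replicate left out. The cause was not tested. Low-level genes such as MEF2C, with 4 and 6 UMIs, are limited by depth.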

Other observations

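None of the 17 glycolysis genes and none of the 83 measured ribosomal protein genes was past the fold in either direction against all other cells, with log2 ratios of the summed levels of −0.07 ± 0.0040 and 0.15 ± 0.0029. Of 22 immediate early and stress genes, HSPA1A and FOSL1 were lower and 0 were higher, near the 10.8% lower among all genes. The summed level of the list was 38.95 and 38.6 against 46.5 and 46.4 (log2 ratio −0.26 ± 0.0051), and cluster 1 was the 13th of 15 clusters in it. HSPA8, the most abundant, was at 12.98 and 12.93 UMIs per 10000 against 19.4 and 19.2.

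The libraries differed from each other in some genes inside the cluster. Of 7730 genes with at least 100 UMIs in cluster 1 in both replicates, 88 (1.14%) differed by 1.5-fold or more between replicates, and 74 of these did so the same way in all other cells. TIMP2 was at 4.44 and 6.95 in cluster 1 and at 3.06 and 4.69 in all other cells, LMNA at 3.08 and 4.81 against 3.23 and 5.15, and TUBB at 0.873 and 2.03 against 1.49 and 3.22. A ratio between clusters taken within a library is not moved by a difference that both share.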
